A study of Rattus norvegicus with 24 samples.

Results

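Gene expression in the left ventricle was compared with that in the right ventricle of the 6 rats labelled CTL (read here as control). The comparison took all CTL libraries of the series, 12 of 24, 6 from left ventricular tissue that includes the septum and 6 from the right ventricular free wall, and matched them by the 4-digit animal number in the label (written as in the deposited tables, C_7000 and so on for CTL, with D_ for DAAO). The rats are of strain WI, and the labels give no sex, age, dose or time. The other 12 libraries come from 6 rats labelled DAAO, which usually stands for D-amino acid oxidase. This oxidase releases hydrogen peroxide when it is fed D-amino acids, and it serves as a switchable source of oxidants in cells. These libraries serve here as a second set of left and right ventricles, and their chamber difference is also compared with that of CTL. RNA sequencing of whole tissue was used, so fewer cells of a type and less RNA per cell cannot be told apart.

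The ventricles share a cell composition of cardiomyocytes, fibroblasts, endothelial and mural cells, but differ in origin and load. The left ventricle arises mainly from the first heart field, ejects into the systemic circulation at high pressure and has a thick wall. The right ventricle arises mainly from the second heart field, ejects into the low-pressure pulmonary circulation and has a thin, crescent-shaped free wall. The septum, which carries the bundle branches of the conduction system, went with the left ventricle in these samples, so a difference between the groups can also be one between septum and free wall.

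Genes carry Ensembl numbers in the files, with no names beside them. They are therefore described by abundance, size and direction of the difference, and 4 are given by identifier. The tissue labels could not be checked against marker genes for the same reason. Left and right samples formed separate sets with their own raw data and analysis, per the design text, so the ventricle cannot be told apart from anything that differed between these sets.

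In 3 of the 6 CTL animals the number did not bring together the libraries that were most alike. For each left library, its deviation from the left mean was correlated across the 13550 tested genes with the deviation of each right library from the right mean. Animals C_7000, C_7005 and C_7121 correlated best with their own right library, at r of 0.48, 0.76 and 0.51. For animals C_7118, C_7120 and C_7123 the own right library gave 0.05, 0.07 and 0.24, while the best right libraries were those of C_7123 (0.48), C_7118 (0.27) and C_7120 (0.25). Over the 200 genes that varied most between animals on both sides, the same right libraries came first, at 0.37, 0.54 and 0.54, against -0.04, 0.01 and 0.26 for the own number. For C_7123 the own and the best value nearly tied over all tested genes, and the 200 genes are part of those. All are correlations across genes, which are not independent.

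**Figure D1:**
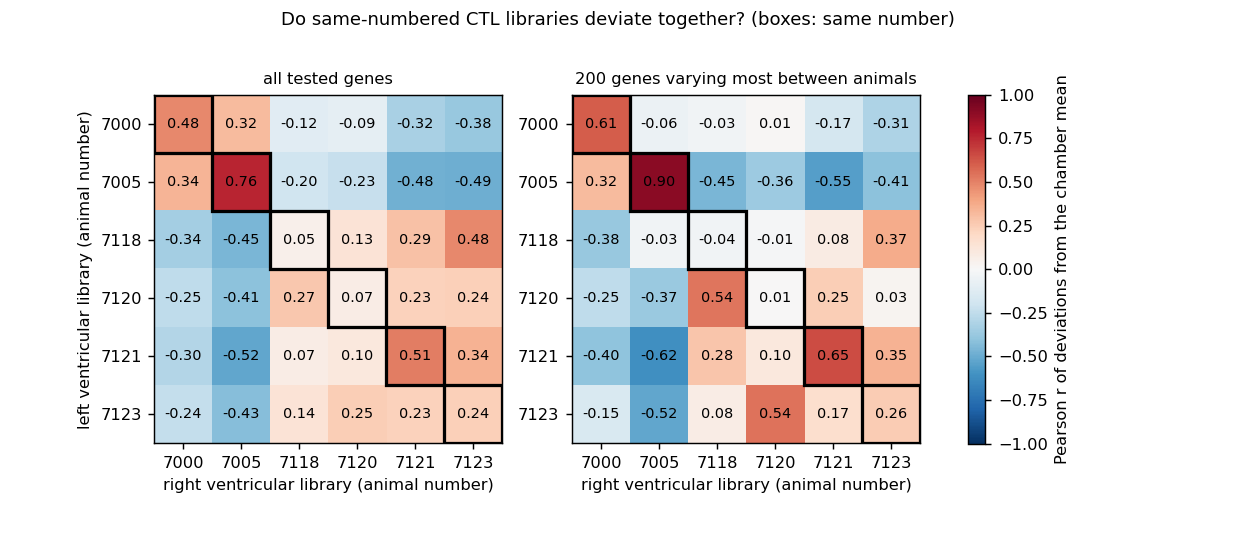
Pearson correlation, across all tested genes (left panel) and the 200 genes varying most between animals (right panel), of the deviations of each left ventricular CTL library (rows) and each right ventricular CTL library (columns) from the mean of its chamber; black boxes mark equal animal numbers. The boxes of C_7000, C_7005 and C_7121 hold the highest value of their row, while in the rows of C_7118, C_7120 and C_7123 the highest value lies outside the box.

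Genes nearly silent in some CTL libraries and clearly present in others, on both sides, numbered 18. Of these, 16 were high on the left in C_7005 alone and were also high on the right in C_7005. The pair left over was picked after the values were seen. Each was nearly silent in 1 left and 1 right library, which carried different numbers. The first of them had a normalized count (reads divided by a size factor per library) of 1.02 in the left library of C_7118 and at least 20.9 in the 5 other left libraries. On the right it was at 0 in the library of C_7123 and at 102 in that of C_7118. The other was at 0 in the left library of C_7123 and in the right library of C_7120, with 29.0 in the right library of C_7123 and 296 in the left library of C_7120. In the DAAO rats all 6 left libraries correlated best with the right library of the same number, at r from 0.49 to 0.67. Whether the 3 CTL libraries of one side carry a wrong number was not tested. A fit in which animals C_7118, C_7120 and C_7123 share 1 block level, so that their order does not matter, is given beside the main result, and a fit without them too.

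Sequencing depth, taken as the whole reads recovered from the deposited values, was 18393042 ± 2712030 on the left and 15498549 ± 861927 on the right (SD, n = 6 each). More genes were detected on the left. With all libraries brought to 14419449 reads, 17914 ± 562 genes had a read in the left and 15999 ± 389 in the right libraries (SD, n = 6 each), and the lowest left library, at 17265, lay above the highest right library, at 16712. The difference held in 6 of 6 animals, with an exact permutation p of 0.03125 over the sign changes within animals, the smallest that 6 pairs allow, and 0.0625 after Benjamini-Hochberg adjustment over 4 library measures. Without use of the pairing the exact permutation p was 0.00216, the smallest that 6 against 6 allow, and 0.00866 after adjustment.

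Genes seen on 1 side alone make up only part of the surplus on the left, and a rule of no read on the other side favours scarce ones. A read in at least 5 of the 6 left libraries and in no right library was found for 200 genes, and the reverse for 1 gene. The mean normalized count of these 200 genes on the left was at most 14.4, with a median of 1.85. At equal reads the numbers were 154 and 3. Of the 200 genes, 169 had the higher mean on the left in the DAAO rats, but 170 had a read in at least 1 right DAAO library. Among all 9301 genes with a CTL read and a mean under 10, 71.8% had the higher left mean in CTL. The like share in DAAO was not counted. In the DAAO rats the detection gap was narrower, 17967 ± 320 genes on the left and 16942 ± 495 on the right at 13280705 reads, where CTL had 17784 ± 548 and 15939 ± 381 (SD, n = 6 each).

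**Figure D2:**
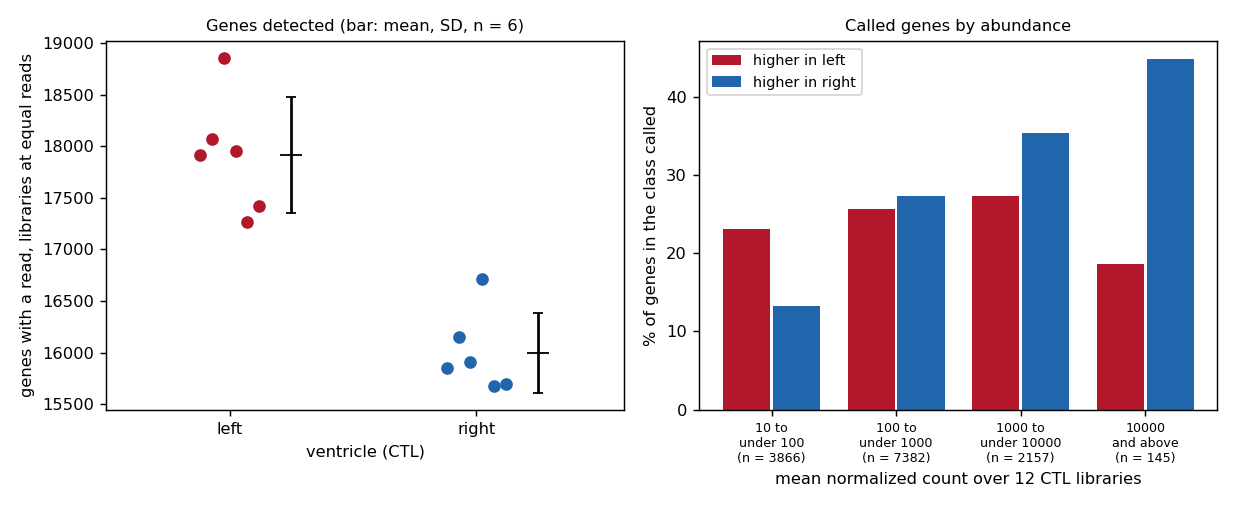
Left panel, number of genes with at least 1 read in each CTL library at equal reads, by ventricle, with the mean and SD of 6 libraries beside the points; the 6 left libraries lie above the 6 right ones. Right panel, percent of the genes of each abundance class that were called higher in the left (red) or in the right (blue) ventricle; 894 against 514 genes in the scarcest class and 27 against 65 in the most abundant one.

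Whether the ventricles of CTL rats differ in gene expression was tested with limma on log2(normalized count + 1), with the animal as a block. The 12 libraries were normalized together, and genes with a mean of at least 10 over them were tested. Differences are given as left minus right, and on this scale they understate those of scarce genes. Of 13550 genes, 6761 (49.9%) differed at a Benjamini-Hochberg adjusted p under 0.05, 3404 (25.1%) higher in the left and 3357 (24.8%) higher in the right ventricle. With animals C_7118, C_7120 and C_7123 sharing 1 block level the count was 6994, and 6675 of the 6761 were called there too. Without these 3 animals 5647 genes were called, and with no block 5799.

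Most of these differences were small. The median absolute log2 difference was 0.62 over the called genes and 0.37 over all genes tested, and 46.1% of the called genes differed by less than 1.5-fold. A called difference of at least 2-fold was found for 1489 genes (11.0% of those tested), 993 higher in the left and 496 higher in the right ventricle. Among the largest differences the left side prevailed further, with 230 genes at least 4-fold higher on the left and 41 on the right. The 4-fold differences belonged mostly to scarce genes, with a median mean count of 28.4 for those higher on the left and 47.6 for those higher on the right, and 7 and 3 of them had a mean of at least 1000. The left surplus among 2-fold differences lay below a mean of 1000. It was 585 against 214 genes at a mean of 10 to under 100, and 347 against 199 at 100 to under 1000. From 1000 to under 10000, 59 were higher on the left and 74 on the right, and from 10000 upward 2 and 9.

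**Figure D3:**
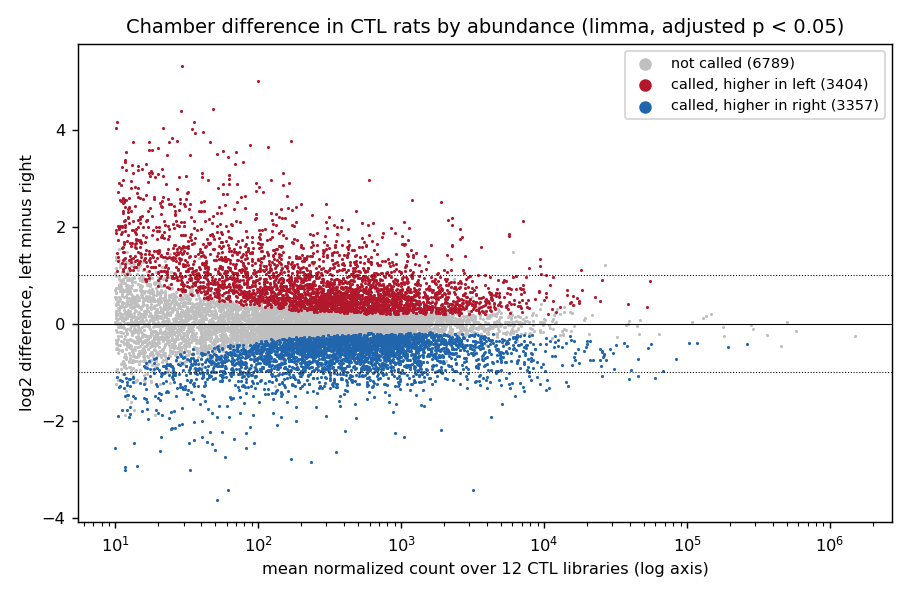
Log2 difference between the ventricles in CTL rats, left minus right (vertical axis), against the mean normalized count over the 12 CTL libraries (horizontal log axis), 1 point per gene; red and blue points were called higher in the left (3404) and in the right (3357), and dotted lines mark a 2-fold difference. The cloud widens upward among scarce genes, while the most abundant genes lie mostly below 0.

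Groups that did not overlap made up a large share of the calls. For 1673 genes (12.3%) all 6 left libraries lay above all 6 right libraries, and for 1451 genes (10.7%) all lay below, a count that does not use the pairing. With equal totals the numbers were 2383 and 792, so the split depends on the scaling. Of the 271 called genes with at least a 4-fold difference, 197 of the 230 higher on the left and 32 of the 41 higher on the right separated the ventricles in this way.

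Direction went with abundance. Among 3866 genes with a mean of 10 to under 100, 894 were higher on the left and 514 on the right. Among 7382 genes with a mean of 100 to under 1000 the numbers were 1893 and 2016, and among 2157 genes with a mean of 1000 to under 10000 they were 590 and 762. Of the 145 genes with a mean of at least 10000, 27 were higher on the left and 65 on the right, with log2 differences from -1.37 to 1.21 and a median of -0.22. Differences in detection moved with the low end of this pattern, and their part in it was not tested. Just under the minimum, 59.8% of the 1008 genes with a mean of 5 to under 10 had the higher mean on the left, and just above it 56.9% of the 1018 genes with a mean of 10 to under 20.

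The balance of directions depended on the scaling. With all libraries brought to equal totals, the median log2 difference of all genes moved from 0.00 to 0.13, and 4401 genes were higher on the left and 2317 on the right. The classes between 100 and 10000 then had more genes higher on the left, 2512 against 1333 and 832 against 569. At both ends the direction was the same under all 3 scalings tried: with equal totals 1017 scarce genes were higher on the left and 352 on the right, and of the 148 most abundant genes 40 were higher on the left and 63 on the right. The surplus of left-higher genes among 2-fold differences, all classes together, also had the same direction. It was 1271 against 318 with equal totals and 1008 against 483 with TMM. By class it was counted under the main scaling alone.

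The 10 most abundant genes, which held 26.5% ± 3.5 of the reads on the left and 28.2% ± 2.9 on the right (SD, n = 6 each, exact permutation p = 0.0625 paired and 0.374 unpaired), differed little. The most abundant gene had a normalized count of 1389910 ± 325384 on the left and 1623840 ± 270375 on the right (SD, n = 6 each), and was lower on the left in 6 of 6 animals, but its log2 difference of -0.24 (SE 0.27) did not pass the limma test (adjusted p = 0.476). Of the 10 genes, 6 were lower on the left in 6 of 6 animals and 2 were called, those ranked 8th and 9th in abundance. The gene of rank 9 had 161675 ± 30331 on the left and 224734 ± 38358 on the right (SD, n = 6 each), a log2 difference of -0.48 (SE 0.15, limma adjusted p = 0.0227). The gene of rank 8 was close to the threshold, with a log2 difference of -0.41 (SE 0.16, limma adjusted p = 0.0487). In none of the 10 were the ventricles separated in all libraries.

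Genes to be given by identifier were the largest differences in each direction among called genes with a mean of at least 50 and the same sign in 6 of 6 animals. ENSRNOG00000048644 had the largest difference toward the left. Its normalized counts in the left libraries of animals C_7000, C_7005, C_7118, C_7120, C_7121 and C_7123 were 135, 140, 219, 235, 204 and 213, and in the right libraries 1.12, 1.11, 21.7, 10.3, 2.48 and 8.58. Every left library was far above every right one, and the right values of C_7000, C_7005 and C_7121 rest on 1 or 2 reads each. The means were 191 ± 42.7 and 7.54 ± 7.95 (SD, n = 6 each), a log2 difference of 5.02 (SE 0.37, limma adjusted p = 5.02e-06). The log2 difference of ENSRNOG00000048644 was 4.16 with a pseudocount of 5 and 6.0 without animals C_7118, C_7120 and C_7123.

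ENSRNOG00000050490 came next toward the left. Its left libraries, in the same order of animals, had normalized counts of 331, 268, 332, 313, 294 and 350, and its right libraries 11.2, 9.95, 34.9, 49.3, 32.2 and 17.2. The left values lay close together, while the right values spread about their mean by more than their left counterparts in relative terms: the means were 314 ± 29.7 and 25.8 ± 15.6 (SD, n = 6 each). The log2 difference was 3.78 (SE 0.28, limma adjusted p = 4.92e-06), and from 3.32 to 4.17 over the alternatives tried.

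ENSRNOG00000032989 had the largest difference toward the right. In the order of animals above, its normalized counts were 5.91, 5.41, 9.16, 0.849, 13.4 and 18.1 in the left libraries and 23.6, 38.7, 290, 103, 144 and 84.8 in the right libraries. All right libraries were above all left ones, and the highest right library was that of C_7118. The means were 8.80 ± 6.17 and 114 ± 96.6 (SD, n = 6 each), a log2 difference of -3.44 (SE 0.49, limma adjusted p = 0.000225). The log2 difference of ENSRNOG00000032989 was -4.03 without animals C_7000 and C_7005 and -2.61 without C_7118, C_7120 and C_7123.

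ENSRNOG00000019445 followed, with normalized counts of 38.8, 32.4, 42.7, 29.7, 79.7 and 67.0 in the left libraries and 122, 203, 1030, 387, 513 and 258 in the right libraries. The right library of C_7118 was again the highest and those of C_7000 and C_7005 the lowest, and the ventricles did not overlap. The means were 48.4 ± 20.3 and 420 ± 331 (SD, n = 6 each), a log2 difference of -2.84 (SE 0.32, limma adjusted p = 5.85e-05), from -3.20 without animals C_7000 and C_7005 to -2.31 without C_7118, C_7120 and C_7123. In all 4 identified genes the right libraries of C_7000 and C_7005 held the lowest right values.

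**Figure D4:**
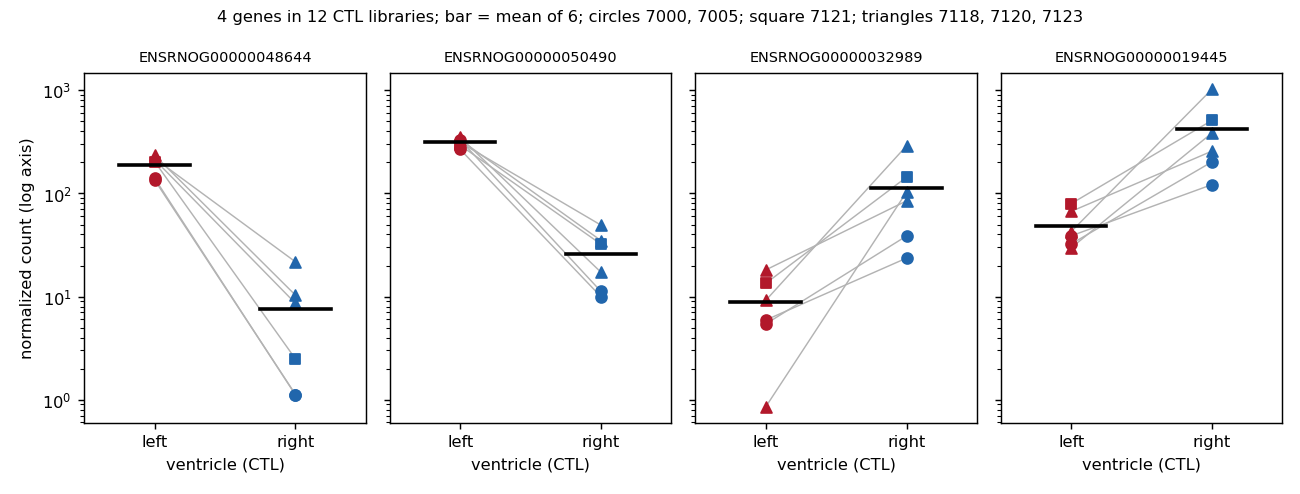
Normalized counts (log axis) of the 4 identified genes in the left (red) and right (blue) CTL libraries, with grey lines joining equal animal numbers and black bars at the mean of 6; circles are animals C_7000 and C_7005, the square is C_7121 and triangles are C_7118, C_7120 and C_7123. Left and right points do not overlap in any panel, and the circles lie lowest among the right points in each. The choice of these genes by the size of their difference favours such separation.

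The left minus right differences spread unequally in the single animals, and for C_7118, C_7120 and C_7123 they rest on numbers that did not pair the most similar libraries. The left minus right difference of each animal was regressed, across all tested genes, on the mean of the 5 others. The slope lay between 0.82 (C_7005) and 0.97 (C_7118, with 0.95 in C_7000), and the correlation across genes between 0.66 (C_7118) and 0.79 (C_7121). At least a 2-fold difference, called or not, was seen in 12.6% of genes in C_7005, 24.8% in C_7118 and between 14.0% and 17.4% in the 4 others. The median absolute log2 difference was 0.38 in C_7005 and 0.54 in C_7118. C_7118, with the largest values, thus had the lowest correlation with the other animals. How much of its larger values is scatter about the common difference was not tested.

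The ventricle was the main axis of variation among the CTL libraries, and the next set C_7005 and C_7000 apart. The first principal component, 36.7% of the variance, put all left libraries on one side and all right libraries on the other. The second, 28.7%, set both libraries of C_7005 (76.6 and 60.0) and of C_7000 (30.3 and 16.8) apart from the 4 other animals, which lay between -45.3 and -8.12. Among those 4 animals the second component also followed the ventricle. Their left libraries lay between -18.1 and -8.12 and their right libraries between -45.3 and -20.6. Without C_7000 and C_7005, 5000 genes were called, 2581 higher on the left and 2419 on the right, and 4865 of them were among the 6761. Right libraries varied more within their chamber, with a median SD per gene of 0.30 on the log2 scale against 0.22 on the left.

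The same comparison in the 6 DAAO rats, which share no library with the CTL comparison, asked whether these chamber differences are present in other animals. In that fit 5697 of 13895 genes (41.0%) were called by limma, 2777 higher on the left and 2920 on the right, and 3730 with no block. With equal totals the split was 3616 and 1866. Of the 6706 genes called in CTL and tested in both, 4091 were called in the same direction in DAAO, 61.0% of the CTL calls and 73.0% of the DAAO calls, and 47 were called in the opposite direction. The estimated direction was the same for 91.1% of the CTL calls, beside 78.3% of all 13373 genes tested in both. The differences in CTL and DAAO had a Pearson correlation of 0.81 (Spearman 0.76) over those genes, which share the libraries and are no independent points. The left and right sets were the same for both groups of rats, so anything that separates these sets would be shared.

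Nearly all of the largest CTL differences were called again in DAAO. Of the 271 genes with at least a 4-fold difference, 252 were tested in DAAO. All 252 had the same sign there and 239 were called. Of 1438 genes with at least a 2-fold difference in CTL, 1173 (81.6%) were called in the same direction in DAAO. Of the 13373 genes tested in both, 746 had all left libraries above all right libraries in both groups of rats, and 531 below in both. In CTL alone the counts were 1673 and 1451 of 13550 genes, and 2383 and 792 with equal totals. The counts over both groups come from the main scaling alone.

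The median size of the estimated chamber difference was smaller in DAAO than in CTL rats. Over all genes of the joint fit of 24 libraries the median absolute log2 difference was 0.37 in CTL and 0.27 in DAAO, and 0.38 and 0.27 with equal totals. The genes with at least a 2-fold difference in CTL had a median of 1.34 in that direction in CTL and 0.84 in DAAO, values that favour CTL because these genes were chosen there. The 719 genes with at least a 2-fold called difference in DAAO, chosen the other way, had a median of 1.33 in DAAO and 1.52 in CTL.

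The difference itself was tested as an interaction in a limma fit over all 24 libraries, with the animal as a block. It was called for 1067 of 13810 genes (7.73%), with a more positive left minus right difference in CTL for 493 and in DAAO for 574. With equal totals the split was 646 and 352. Over the 1067 genes, taken whatever their call in CTL or DAAO, the absolute difference was the smaller one in DAAO for 905 and the larger one for 162. The like split over all 13810 genes was not counted, but their median absolute difference leaned the same way, 0.37 in CTL and 0.27 in DAAO. Genes chosen for a large difference in CTL favour smaller values in DAAO, and the reverse choice favours larger ones. Among 1471 genes at least 2-fold different in CTL the interaction was called for 317, of which 316 had the smaller absolute difference in DAAO. Among 768 genes at least 2-fold different in DAAO it was called for 43, of which 18 had the larger and 25 the smaller absolute difference in DAAO. The count of 1067 was 385 with no block, and it depended on single animals, with 513 without C_7000, 711 without C_7120, 566 without D_7138, 462 without D_7142 and 396 without D_7146. With animals C_7118, C_7120 and C_7123 sharing 1 block level it was 1195.

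**Figure D5:**
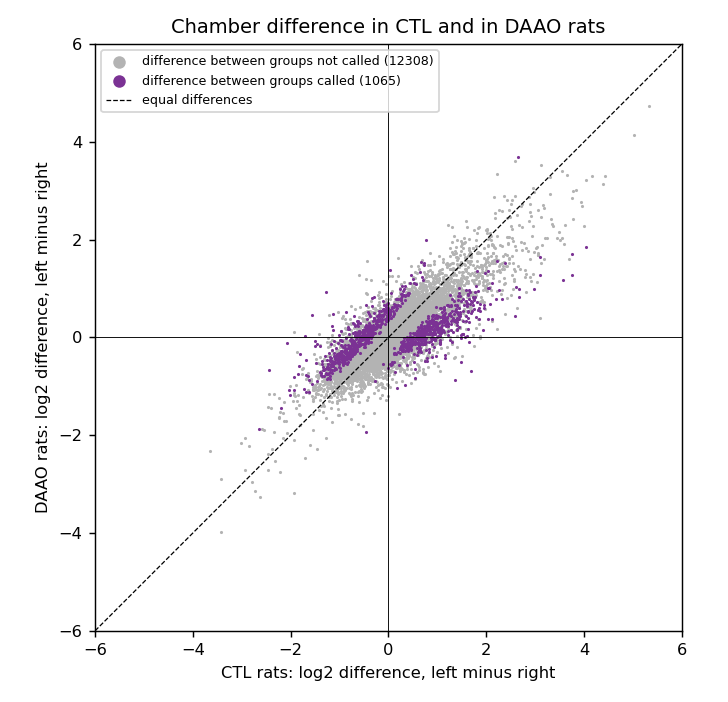
Log2 difference, left minus right, of each of 13373 genes in the 6 CTL rats (horizontal axis) and in the 6 DAAO rats (vertical axis); purple points are the 1065 plotted genes whose difference was called unlike between the groups, and the dashed line marks equal differences. Large differences lie in the same quadrants in both groups.

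The 4 identified genes differed between the ventricles in the DAAO rats as well, in the same direction and without overlap. The log2 difference there was 4.14 (SE 0.49, limma adjusted p = 3.88e-05) for ENSRNOG00000048644 and 3.0 (SE 0.15, limma adjusted p = 1.19e-07) for ENSRNOG00000050490. It was -2.89 (SE 0.31, limma adjusted p = 1.86e-05) for ENSRNOG00000032989 and -2.22 (SE 0.25, limma adjusted p = 2.94e-05) for ENSRNOG00000019445. For none of the 4 did the interaction pass the test, at limma adjusted p values of 0.407, 0.168, 0.616 and 0.421. The 4 genes were chosen for large differences in CTL, which favours smaller ones in DAAO. The CTL minus DAAO difference was 0.94 (SE 0.67) for ENSRNOG00000048644. On the scale of all 24 libraries its level on the left was 207 ± 46.4 in CTL and 66.0 ± 39.3 in DAAO, and on the right 8.22 ± 8.68 and 3.67 ± 3.60 (SD, n = 6 each). ENSRNOG00000019445, on that scale, stood at 458 ± 363 on the right in CTL and at 341 ± 163 in DAAO, against 52.5 ± 22.0 and 69.2 ± 20.6 on the left (SD, n = 6 each).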

How the data were processed

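RNA was measured in the left ventricle with septum and the right ventricular free wall of 6 CTL and 6 DAAO rats. Per the labels' protocols, RNA came from snap-frozen hearts by Trizol extraction, and Novogene made and sequenced the libraries in paired-end mode. The submitters' processing notes list STAR 2.7.0a, FastQC, DESeq2 1.26.0 and the build Rnor_6.0. Counter, annotation and strandedness: not given in the sources used here. Overlapping genes and near-identical copies are therefore uncertain.

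The authors deposited 1 table per ventricle with normalized counts (a signal: the counts over a size factor per library) of 32883 Ensembl numbers. Each value was a whole multiple of the smallest value above 0 of its column (100% within 1e-06), so reads were recovered by division. Both tables were joined by Ensembl number and median-of-ratios size factors were computed over the 12 CTL libraries, over the 12 DAAO libraries, or over all 24. Differences were tested by limma 3.58.1 (R 4.3.3), fitted to log2(normalized count + 1) with a variance trend, the animal as a block and Benjamini-Hochberg adjustment, two-sided, for genes with a joint mean of at least 10. The CTL numbers did not pair all animals: same-numbered deviations correlated at 0.05 to 0.76, and for 3 of 6 the own number came first. No label says that a number stands for 1 rat. With the block, limma p-values measure the spread of the left minus right differences between numbers, and with no block the spread between samples. No 2 libraries of a chamber were alike within sampling noise (chi-square per degree of freedom at least 11.6). Exact permutation tests on library measures were two-sided.

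Alternatives were count tests on the recovered reads (the quasi-likelihood test of edgeR 4.0.16, DESeq2 1.42.0), TMM and equal totals, other pseudocounts and filters, weights, no block and fewer animals. The fits were also run on simulated data in which all numbers paired and few genes differed. That setting is unlike the CTL libraries, so it does not cover the pairing in doubt. The 47357 reference genes, of assembly GRCr8, come without Ensembl numbers and matched 0 identifiers, so 57 gene and marker lists were not run and no sequence is printed. Genes given by identifier were the 2 largest differences in each direction among called genes with a mean of at least 50 and the same sign in 6 of 6 animals. The comparison, lists and tests were chosen with earlier results of these data known.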

Additional observations from a re-analysis of the deposited data

Results flagged for a closer look

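The chamber difference was unlike in CTL and DAAO rats for 1067 genes, by a limma test of the difference itself over all 24 libraries with the animal as a block. No library stood far from the 5 others of its group in any of 24 groups of 6 examined, which were the 4 identified genes in each of 4 groups and 4 library measures in each CTL ventricle, where chance gives 1.2.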

How the results depend on the processing

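The count of genes called between the CTL ventricles stayed within 1.5 times of 6761 under all 20 alternatives, from 5000 without animals C_7000 and C_7005 to 7261 with no filter on low values, and from 5729 to 6518 when 1 animal was left out. The called genes shared with the main fit had the same direction in each of them. edgeR called 6689 genes and DESeq2 6588, of which 6614 and 6461 were among the 6761. The identified genes stayed called with the same sign wherever they were tested, which is no separate support because they were chosen for large differences in these libraries. With no replicate block, 5799 genes were called in CTL, 3730 in DAAO (1772 of them higher on the right) and 385 for the difference between CTL and DAAO. With equal totals, 1866 genes were higher on the right in DAAO. Leaving out 1 animal at a time gave from 396 to 1328 genes for the difference between CTL and DAAO, and edgeR gave 1053. In the unpaired exact permutation test, the left minus right differences of 2894490 reads and of 1915 genes detected at equal reads had Benjamini-Hochberg adjusted p values of 0.0216 and 0.00866, both 0.0625 when paired. The cause was not tested. At 14419449 to 23263897 reads per CTL library, genes with a mean near 10 rest on few reads, and differences there are less precise.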

Other observations

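Some genes varied strongly between the libraries of a ventricle, mostly with animal C_7005. Nearly silent in some CTL libraries and clearly present in others, on both sides, were 18 genes (below 2 and at least 50 normalized counts, with a gap of over 3 on the log2 scale). For 16 of them animal C_7005 alone was high on the left and was also high on the right, and for 14 of these it was the only high animal on the right too. This set was chosen after the values were seen. The rule takes only genes that vary within both ventricles, so a gene that follows the ventricle could not enter. Below the minimum for testing, 9301 genes had a CTL read, and 71.8% of them had the higher mean on the left. In the DAAO rats, counted over all reads, 66 genes had reads in at least 5 of 6 left libraries and none on the right, and 7 genes had the reverse.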
